A study of Homo sapiens with 4 samples.

Results

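Nuclear-encoded subunits of the mitochondrial respiratory chain and of ATP synthase were examined in LV-M100 cells transfected with siRNAs against SNRNP40, a component of the spliceosome's U5 particle. They were chosen by gene symbol, with a rule that uses no measured values but was set with earlier results of these data known. Symbols that start with UQCR, with ATP5 or with COX and a digit from 4 to 8 were taken. So were those that start with NDUF followed by A, B, C, S or V and a digit. SDHA, SDHB, SDHC, SDHD, CYC1 and CYCS were added. This gave 93 of the 23217 gene symbols in the deposited table, on 160 of its 44578 transcript rows. Of these, 85 are subunit genes. The other 8 match the symbols but are COX4NB, ATP5S, ATP5SL and COX7A2L, which encode other proteins, the pseudogenes ATP5EP2 and UQCRBP1, and the read-through genes ATP5J2-PTCD1 and NDUFC2-KCTD14. They were counted as members but left out of every value given for a complex. The subunits encoded by mitochondrial DNA were not analysed here.

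The respiratory chain passes electrons from NADH (complex I, the NDUF genes) or from succinate (complex II, the SDH genes) by way of ubiquinone to complex III (the UQCR genes and CYC1), then by cytochrome c (CYCS) to complex IV (the COX genes), which reduces oxygen. Complexes I, III and IV pump protons across the inner membrane, and ATP synthase, also called complex V (the ATP5 genes), uses the returning protons to make ATP. Complexes I, III, IV and V also hold subunits made from mitochondrial DNA, so the products of the nuclear genes are assembled with them in a fixed stoichiometry.

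LV-M100 is a single clonal subpopulation, with low cell-to-cell variability, of MDA-MB-231, an established breast cancer line. The 2 control libraries received NC1 and BLOCK-iT Fluorescent Oligo, and the 2 knockdown libraries received siSNRNP40 #1 and siSNRNP40 #2. All 4 were transfected by lipofection, and RNA was extracted 48 h later and depleted of ribosomal RNA before library preparation with the directional ScriptSeq v2 kit. The deposited table gives 1 FPKM value per transcript for each condition, pooled over its libraries (FPKM counts fragments relative to transcript length and to all mapped fragments). No value below therefore has an error, a number of replicates or a test, the spread between replicates and the depth are unknown, and the siRNAs of a condition cannot be told apart. Differences are given as measured sizes and read against the same size over all genes.

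The knockdown was visible in the pooled values. SNRNP40 went from an FPKM of 40.4 in the controls to 6.12, a log2 fold change of -2.72. The mesenchymal marker VIM stood at 750 and 733, while ESR1, PGR and CDH1 were below an FPKM of 0.1 in both conditions. EPCAM, an epithelial marker listed as low in the line, was present at 10.6 and 10.0. Of 12 interferon-stimulated genes, 8 were higher by more than 0.3 on the log2 scale and 0 lower by as much (median 0.50). Over all 12334 genes with a mean FPKM of at least 1, 13.3% were higher and 12.7% lower by as much. The part of the interferon-stimulated genes in the values of the respiratory genes was not tested.

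Respiratory chain genes were among the more abundant transcripts of these cells and kept their levels after SNRNP40 siRNA to within narrow limits. FPKM values were summed over all rows of a gene symbol, and 86 of the 93 members reached a mean FPKM of 1 over both conditions, the minimum used for fold changes. Their median mean FPKM was 63.0, against 10.7 over all 12334 genes that passed, and 77 of the 86 lay above the latter value. Levels are set side by side between genes because FPKM is scaled by length. Other effects of length on FPKM were not tested, and shorter members tended to have higher values. Spearman's rho between coding length and mean FPKM was -0.20 across 84 members and -0.16 over 10948 genes. ATP5E, the epsilon subunit of ATP synthase, was highest with a mean FPKM of 2983 and ranked 7 among all genes, followed by UQCRH (628), COX7C (613), NDUFS5 (563) and ATP5H (351). At the low end of the subunits common to all tissues stood SDHC (3.77) and ATP5D (8.54). All members together made up 2.12% of the summed FPKM with control siRNA and 2.34% with SNRNP40 siRNA. Most of that gap was ATP5E, since the share of the subunits without it was 1.59% and 1.63%. The order of the members by level was nearly the same in both conditions (Spearman's rho 0.994 across 86 genes, a description, since the genes share their libraries).

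**Figure D1:**
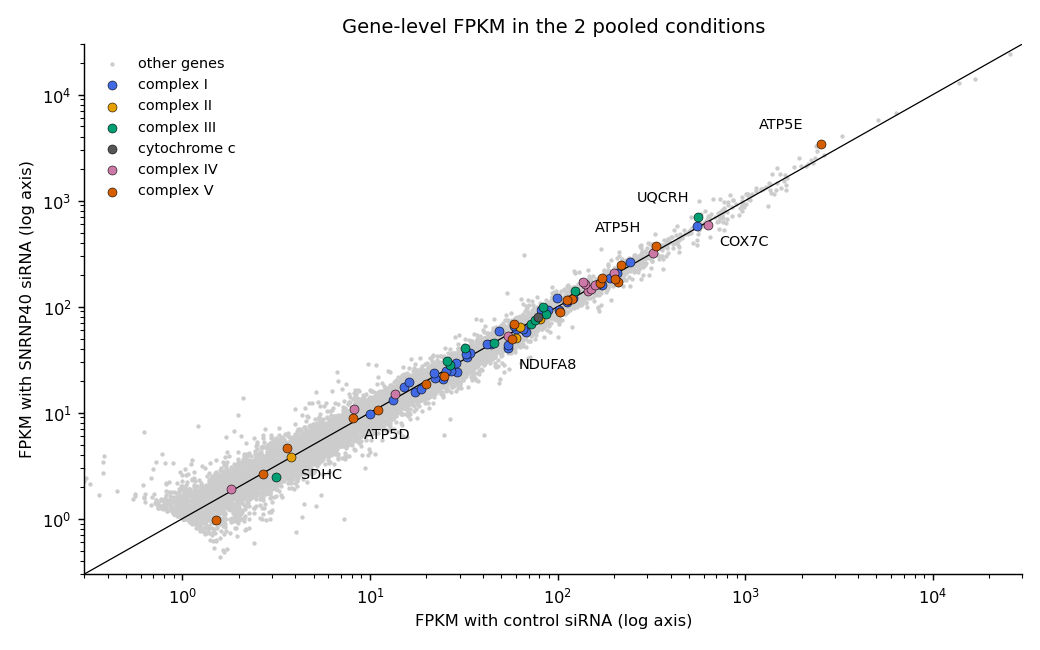
FPKM summed per gene with control siRNA (x axis) and with SNRNP40 siRNA (y axis), both on log axes, for all genes past the minimum of 1 (grey) and for the 86 members by complex (colours). The line marks equal values. Most members lie close to it over the whole range. The members lowest and highest in level, ATP5J2-PTCD1 (1.52 and 0.969) and ATP5E (2517 and 3449), lie farthest from it.

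None of the 86 members past the minimum reached a log2 fold change of 1 in either direction in its gene sum. The study used this size to call transcripts, not gene sums, dependent on SNRNP40, and single transcripts are treated further below. Over all 12334 genes, 0.811% were above 1 and 0.657% below -1, so about the same small share of 86 genes would be fewer than 1 gene each way and the 0 says little about the members. A smaller size of 0.3 was therefore used as well. Above 0.3 stood 6 members (6.98%), ATP5E, COX4NB, ATP5S, UQCRHL, COX4I1 and UQCRH, where the background was 13.3%. Below -0.3 stood 4 members (4.65%), ATP5J2-PTCD1, NDUFA8, UQCRBP1 and NDUFB3, against 12.7% of all genes. After scaling both conditions to the upper quartile of gene FPKM the counts were 9 and 3, where 15.5% and 10.8% of all genes were past the same limits. With the most expressed transcript of each gene in place of the sum they were 6 and 10, against 17.6% and 15.6%. Without these changes, the remaining 76 members stayed within 0.3 of 0.

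Both ends of this list hold genes that are no subunits. With those left out, 4 subunits were above 0.3 and 2 below -0.3 among 79. The median log2 fold change of the 86 members was 0.0051, with quartiles of -0.078 and 0.13, and 46 of the 86 were above 0. Over all genes the median was 0.0034. The median absolute log2 fold change was 0.0988 for the members and 0.170 for all genes, so the members were the narrower group. Highly expressed genes are also narrower as a class, and most members are highly expressed. At a mean FPKM of at least 20, a limit chosen after the data were seen, 6.64% of 4052 genes were above 0.3 and 9.8% below -0.3, with a median absolute log2 fold change of 0.136. Of the 69 members at this level 4 (5.80%) were above and 2 (2.90%) below, with a median absolute value of 0.0929. These groups are still not matched in level. Their median mean FPKM was 87.2 for the 69 members and 42.4 for the 4052 genes.

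**Figure D2:**
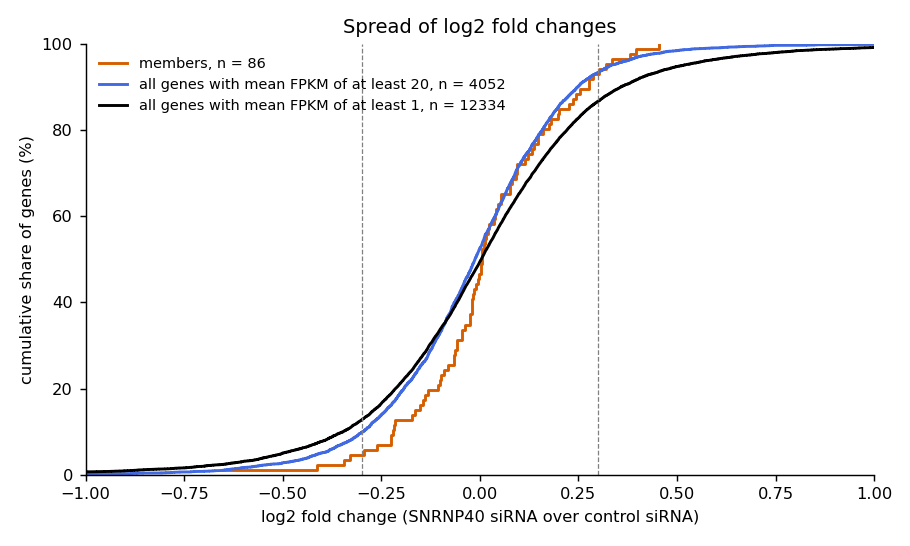
Cumulative share of genes (y axis, percent) by log2 fold change of SNRNP40 siRNA over control siRNA (x axis, shown from -1 to 1), for 86 members, for the 4052 genes at a mean FPKM of 20 or more and for the 12334 genes at 1 or more. Dashed lines mark 0.3 and -0.3; the curve of the members starts to climb later on the left side than both others, with 4 members below -0.3, and runs with that of the highly expressed genes on the right.

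Complex I, the largest of the complexes, was level. Its 37 expressed subunits had a median log2 fold change of 0.013, with 20 above 0 and 17 below, and their summed FPKM was 3017 with control siRNA and 3056 with SNRNP40 siRNA. The members spread over a 57.2-fold range of mean FPKM, from NDUFS7 to NDUFS5, although the complex holds 1 copy of nearly every subunit. None was above 0.3 and 2 (5.41%) were below -0.3, against 13.3% and 12.7% of all genes. The 2 were accessory subunits, as were 30 of the 37. NDUFA8, which carries the paired cysteine motifs of proteins oxidised in the intermembrane space, had an FPKM of 54.5 in the controls and 40.9 after SNRNP40 siRNA (-0.41). NDUFB3, a small subunit of the membrane arm, had 54.3 and 43.2 (-0.33). Both genes are listed with a single transcript, so these values do not depend on how fragments were divided among isoforms. In GRCh37, NDUFA8 is on chromosome 9 (124906337 to 124922058, minus strand) and NDUFB3 on chromosome 2 (201936156 to 201950473, plus strand).

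The core subunits, which carry the flavin and the iron-sulphur clusters or shape the ubiquinone site, did not move as a block. NDUFV1, the subunit that binds NADH and the flavin, was the highest of all complex I genes in fold change, with an FPKM of 99.2 and 121 (0.29). Its partner NDUFV2 had 172 and 160 (-0.10). NDUFS1, the largest iron-sulphur subunit, had 67.5 and 57.8 (-0.22, or -0.50 for its most expressed transcript). These 3 proteins sit together at the NADH-binding tip of the complex, and their transcripts stood on both sides of 0. Further core genes stayed closer to 0, with log2 fold changes of 0.013 for NDUFS3, -0.064 for NDUFS7 and 0.0053 for NDUFS8. Over the core genes the median was 0.0053, and over the 30 expressed accessory subunits it was 0.017.

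Among the accessory subunits the highest fold changes after NDUFV1 were those of NDUFV3, a further protein of the NADH-binding tip (48.5 and 58.7, 0.28), and of NDUFC1, a small membrane subunit (16.1 and 19.5, 0.28). For NDUFC1 the direction depended on the summing, since its most expressed transcript alone had -0.66, and for NDUFV3 that transcript had 0.11. NDUFA10 followed with 15.1 and 17.4 (0.20) and NDUFA6, a subunit of the LYR motif family, with 81.9 and 92.4 (0.17). On the lower side NDUFB6, of the membrane arm, had 29.1 and 24.3 (-0.26, or -0.80 for its most expressed transcript), and NDUFA7 had 24.4 and 21.0 (-0.22). By the letter in the symbol, the medians were 0.023 over 13 NDUFA genes, -0.039 over 11 NDUFB genes, -0.0054 over 8 NDUFS genes, 0.28 over 3 NDUFV genes and 0.062 over 2 NDUFC genes. The higher value of the NDUFV genes rests on NDUFV1 and NDUFV3, since NDUFV2 was below 0. NDUFA4, which takes its name from complex I but is known as a subunit of complex IV, was kept under its symbol and had 22.1 and 23.6 (0.095).

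**Figure D3:**
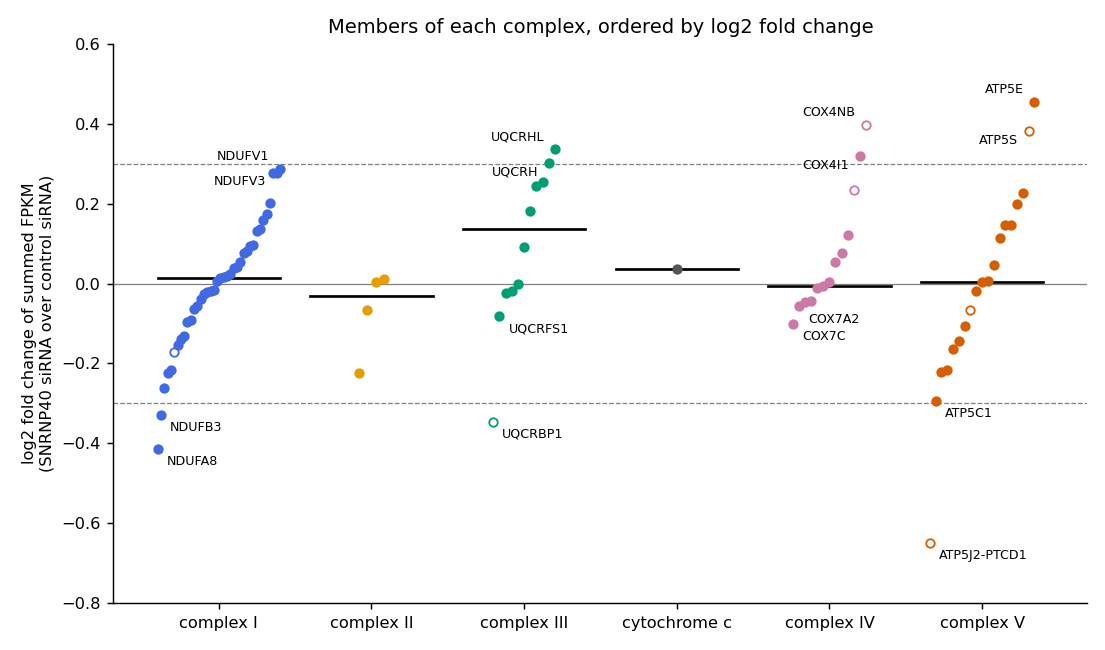
Log2 fold change of summed FPKM (y axis, SNRNP40 siRNA over control siRNA) of each expressed member, ordered within its complex (x axis); filled points are subunits, open points the members that are no subunits, and black lines the median of the subunits. Dashed lines mark 0.3 and -0.3. The medians lie within 0.04 of 0 except that of complex III at 0.14, and the points past the dashed lines are few in each complex.

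Complex II, succinate dehydrogenase, has only nuclear-encoded subunits and also works in the citric acid cycle. The flavoprotein SDHA had an FPKM of 80.5 and 77.0 (-0.065), and the iron-sulphur protein SDHB had 63.2 and 63.7 (0.011). The membrane anchors differed more from each other in level than any of the 4 genes did between conditions. SDHC stood at 3.77 and 3.78 (0.0034) and SDHD at 59.7 and 51.1 (-0.23), the lowest fold change of the complex. The median of the 4 genes was -0.031, and it was -0.00043 after upper-quartile scaling.

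Complex III had the highest median of the complexes, 0.14 over 10 subunits, and a summed FPKM of 1134 with control siRNA and 1306 with SNRNP40 siRNA. Its genes fell into 2 kinds. The small subunits were all higher: UQCRH, the hinge protein of cytochrome c1, had 563 and 694 (0.30), UQCR10 had 25.6 and 30.6 (0.25), UQCRQ had 83.1 and 98.4 (0.24), UQCRB had 124 and 141 (0.18) and UQCR11 had 26.5 and 28.3 (0.092). UQCRHL, an intronless copy of UQCRH on chromosome 1, had 32.0 and 40.4 (0.34). The subunits that carry redox centres and the core proteins were nearly level, with 72.0 and 68.0 for the Rieske protein UQCRFS1 (-0.082), 75.3 and 75.2 for cytochrome c1, CYC1 (-0.0020), 86.9 and 85.7 for UQCRC1 (-0.019) and 45.8 and 45.0 for UQCRC2 (-0.024).

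This division was drawn after the values were seen, so its counts are a description. The 6 small subunits had a median of 0.25 and lay between 0.092 and 0.34, while the 4 others lay between -0.082 and -0.0020. All 6 stayed above 0 with a pseudocount of 1, with the most expressed transcript of each gene, after median centring and after upper-quartile scaling. Of the other 4, 3 were above 0 after upper-quartile scaling, at most 0.029, and 0 under the other settings. UQCRHL and UQCRH are not independent entries. Over 276 bases their transcripts are 98.6% identical, so fragments of one can be assigned to the other, and UQCRHL was listed at 5.70% of the level of UQCRH with control siRNA and at 5.83% with SNRNP40 siRNA. Without both, the median of complex III was 0.045 over 8 subunits.

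Cytochrome c, encoded by CYCS, carries electrons between complexes III and IV and had an FPKM of 78.7 and 80.6 (0.035).

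Complex IV, cytochrome c oxidase, was the most even of the larger complexes. Its 11 expressed subunits had a median of -0.0059 (0.025 after upper-quartile scaling) and a summed FPKM of 1982 with control siRNA and 1968 with SNRNP40 siRNA. Of the 11, 9 lay between -0.10 and 0.077. COX4I1, the largest nuclear-encoded subunit, was the exception with 137 and 171 (0.32). Next came COX5A with 13.7 and 14.9 (0.12). COX7C, the most abundant transcript of the complex, had 634 and 591 (-0.10), and COX7A2, COX8A, COX6B1 and COX6A1 were between -0.057 and -0.010.

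By annotated gene extents, COX4I1 overlaps at its start with a neighbour that the symbol rule also took. On chromosome 16 of GRCh37, COX4I1 (85832239 to 85840674, plus strand) and COX4NB (85805364 to 85833214, minus strand) overlap head to head by 976 bases. COX4NB, now named EMC8, encodes a subunit of a membrane protein insertion complex of the endoplasmic reticulum. It had an FPKM of 8.24 and 10.9 (0.40, or 0.20 for its most expressed transcript), so both genes of the pair were higher. Whether the transcripts behind the FPKM values reach into the overlap was not checked. The counting setting for strand is not given in the sources used here, and any fragments from the overlap cannot be told apart without it. A similar head-to-head pair is that of ATP5J, coupling factor 6 of ATP synthase, and GABPA, a transcription factor of many respiratory genes. Their annotated extents overlap by 1104 bases on chromosome 21. Both genes were lower, ATP5J with 57.02 and 49.1 (-0.22, or -0.35 for its most expressed transcript) and GABPA with 19.4 and 14.5 (-0.42).

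Complex V, ATP synthase, was dominated by a single transcript. ATP5E had an FPKM of 2517 in the controls and 3449 after SNRNP40 siRNA, the highest fold change of the members at 0.45. It made up 58.2% of the summed FPKM of the complex with control siRNA and 65.4% with SNRNP40 siRNA. The epsilon subunit is present in as many copies as the gamma and delta subunits, yet ATP5E was listed at 1242% of the level of ATP5A1, the alpha subunit, in the controls and at 1881% after SNRNP40 siRNA. With ATP5E, the summed FPKM of the 16 subunits was 4326 and 5270 (0.28 on the log2 scale). Without it the sum was 1808 and 1821 (0.010), and the median of the 15 others was 0.0035.

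ATP5E has 3 exons and a coding sequence of 153 bases, the shortest of the members, and is found in GRCh37 on chromosome 20 (57600530 to 57607400, minus strand). In the deposited table it shares a locus with SLMO2 and the read-through gene SLMO2-ATP5E. SLMO2 had an FPKM of 68.3 and 71.2 (0.061), and the read-through had 44.6 and 33.4 (-0.42), small against ATP5E itself. The part that fragment assignment within the locus had in the value of ATP5E was not tested. Its pseudogene ATP5EP2, 96.2% identical over 156 bases, was listed at 1.06 and 0.188.

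Of the other subunits of the catalytic head, where ATP is formed, 3 were lower and 1 was higher. The alpha subunit ATP5A1 had 203 and 183 (-0.14), the beta subunit ATP5B had 103 and 88.1 (-0.22) and the gamma subunit ATP5C1 had 211 and 172 (-0.29, the lowest of the complex). These 3 subunits form most of the head and its rotor shaft, and the transcripts of all 3 were lower in the pooled values. The delta subunit ATP5D was higher, with 8.11 and 8.97 (0.15). ATP5A1 and ATP5C1 kept 98.0% or more of their FPKM in 1 transcript in both conditions, and ATP5B has a single listed transcript.

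The c ring, which turns as protons pass, is built from a single protein that ATP5G1, ATP5G2 and ATP5G3 all encode. ATP5G2, the most abundant, had 58.8 and 68.8 (0.23). ATP5G1 had 19.9 and 18.5 (-0.11, or 0.025 for its most expressed transcript), and ATP5G3 had 24.9 and 22.2 (-0.16). Their sum moved little, from 104 to 110, while the share of ATP5G2 in it was 56.8% with control siRNA and 62.8% with SNRNP40 siRNA. In the stalk and membrane part, ATP5J2 had 217 and 249 (0.20) and ATP5H had 334 and 370 (0.15), whereas ATP5L, ATP5F1 and ATP5O lay between 0.0035 and 0.046.

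Several complexes have minor isoforms of a subunit or isoforms made in few tissues. Most of those listed, though not UQCRHL, were at or near the bottom of the table. COX4I2, COX6A2 and COX8C were listed at 0 in both conditions, against 137 for COX4I1, 164 for COX6A1 and 54.6 for COX8A with control siRNA. COX7A1, a muscle isoform, had an FPKM of 0.500 and 0.354, next to 146 and 140 for COX7A2. COX7B2 had 1.198 and 0.268, next to 199 and 207 for COX7B. NDUFA4L2, known as a gene induced by hypoxia, had 0.0250 and 0.188, next to 22.1 and 23.6 for NDUFA4. These values are under the minimum set for fold changes. Of the minor isoforms above it, UQCRHL was far higher than the others, with 32.0 and 40.4 (0.34), next to 563 and 694 for UQCRH. COX6B2 had 1.82 and 1.92 (0.077), next to 152 and 147 for COX6B1. ATP5L2 had 2.69 and 2.66 (-0.019), next to 168 and 169 for ATP5L. ATP5L2 and ATP5L transcripts are 92.8% identical over 473 aligned bases, so its low value may hold fragments of ATP5L.

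The remaining members that are no subunits included some of the widest values. ATP5J2-PTCD1, a read-through transcript, had an FPKM of 1.52 and 0.969 (-0.65, or -0.36 with a pseudocount of 1), and it shares a locus with ATP5J2 and with PTCD1 (5.20 and 6.66). UQCRBP1, a pseudogene 94.9% identical to UQCRB over 336 bases, had 3.16 and 2.49 (-0.35). NDUFC2-KCTD14 had 17.5 and 15.5 (-0.17), similar to NDUFC2 itself with 18.6 and 16.7 (-0.15), and KCTD14 in the same locus had 1.32 and 2.99. COX7A2L, which joins complexes into supercomplexes, had 140 and 164 (0.24). ATP5S, now named DMAC2L, had 3.60 and 4.69 (0.38), and ATP5SL, an assembly factor of complex I, had 11.0 and 10.5 (-0.066). Their most expressed transcripts alone had 3.55 and 0.23.

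Single transcripts moved more than genes did. There were 120 member transcripts that passed the same minimum of 1 and had a finite fold change. Of these, 11 (9.17%) were above a log2 fold change of 1, where the background over 16691 transcripts was 5.5%, and 2 (1.67%) were below -1, where it was 5.04%. Both directions together were 10.8% of the member transcripts and 10.5% of all transcripts. At a mean FPKM of at least 5 only 1 of 93 member transcripts was past either limit (1.08%, against 3.46% of 9792), and with a pseudocount of 1 there were 7 of 120 (5.83%, against 6.27%). All 13 belonged to genes with several listed transcripts, 10 genes in number and 7 of them subunit genes, and none of the 54 transcripts of single-transcript genes was past either limit. The same split was not made over all genes, so it cannot be read as a trait of the members. For 8 of the 10 genes the gene sum moved by less than 0.3. Most members kept their leading transcript. Of 32 expressed members with several transcripts, 30 had the same one highest in both conditions, and the median share of a gene's FPKM that moved between its transcripts was 3.28%.

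The subunit genes with such a transcript included NDUFB5, NDUFC1, ATP5J2, NDUFB6, NDUFA2 and NDUFS5. In NDUFB5, of the membrane arm of complex I, a transcript listed at an FPKM of 0.0427 with control siRNA stood at 7.80 with SNRNP40 siRNA, from 0.0652% to 12.7% of the gene, while the gene sum was 65.5 and 61.5. In NDUFC1 a pair of transcripts went from 0.452 to 4.75 and from 1.07 to 3.05, and 38.7% of the gene's FPKM moved between transcripts. In ATP5J2 one transcript went from 0.844 to 9.15 and another from 15.3 to 4.44, yet they made up 0.389% and 3.67% of the gene, and 7.07% and 1.78%, in the 2 conditions. NDUFB6 had a minor transcript at 2.57 and 6.65, or 8.83% and 27.4% of the gene.

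NDUFA2 had both a lower transcript (2.09 and 0.472) and a higher one (0.932 and 2.22), and NDUFS5 had one at 1.76 and 4.47, which was under 1% of that abundant gene. The widest change of makeup was in ATP5S, where 60.2% of the FPKM moved and a transcript went from 6.70% of the gene to 60.2% of it, at 0.241 and 2.82. ATP5S and NDUFS1 were the 2 members whose leading transcript differed between conditions, and in NDUFS1 10.6% of the FPKM moved. COX4NB had a transcript at 0.575 and 2.06. ATP5SL had one at 0.990 and 2.48 and another at 2.76 that was listed at 0 with SNRNP40 siRNA. Transcript values are the authors' estimates of how fragments divide among overlapping transcripts, and without values per library the error of that division is unknown.

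**Figure D4:**
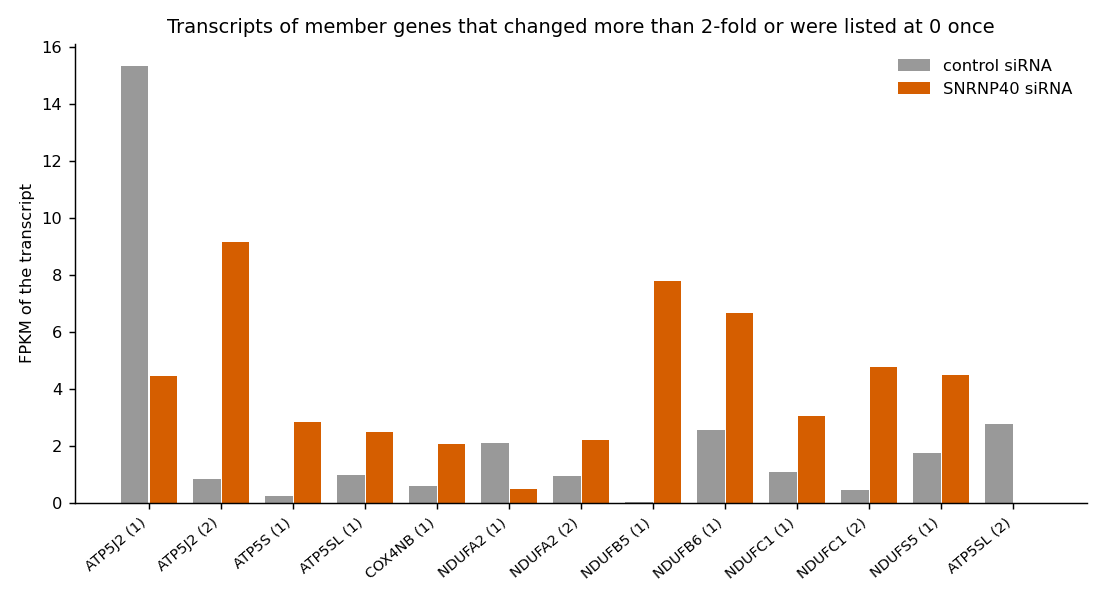
FPKM (y axis) of 12 of the 13 member transcripts past a log2 fold change of 1 in either direction and of the transcript listed at 0 in 1 condition, with control siRNA (grey) and SNRNP40 siRNA (orange); numbers in brackets tell transcripts of a gene apart. Except for an ATP5J2 transcript at 15.3 with control siRNA, all bars stay below 10, far under the gene sums of most of these genes.

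The members share features that the symbol rule did not use. They are short genes, with a median coding length of 423 bases and 4 exons by the canonical transcripts of GENCODE, against 1383 bases and 9 exons over all expressed genes with an annotation. Chromosome 19 held 12 of the 85 annotated members (14.1%), against 7.03% of all expressed genes, and the median of these 12 was -0.00065. Shorter members tended to have higher fold changes. Across 84 members Spearman's rho between coding length and log2 fold change was -0.27, and it was -0.25 without ATP5E. The same relation had a rho of -0.081 over 10948 genes and of -0.17 over the 3796 of them that had a mean FPKM of 20 or more. Genes share their libraries, so these are descriptions.

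Members with a coding sequence under 300 bases had a median log2 fold change of 0.093 (22 genes, of which 68.2% were above 0), and all genes of that length had a median of 0.083 (221 genes, 58.8% above 0). From 300 to 450 bases the medians were 0.0042 for 24 members and 0.048 for 531 genes, and from 450 to 900 bases they were 0.0053 for 25 members and 0.018 for 2198 genes. Members of at least 900 bases had a median of -0.024 (13 genes, 30.8% above 0), and all such genes had -0.012 (7998 genes, 47.9% above 0). ATP5E and the small subunits of complex III other than UQCRB, at 333 bases, belong to the short class, and ATP5A1 and ATP5B to the long one. Both classes also hold genes that went the other way. NDUFB3 (-0.33) and COX7C (-0.10) are in the short class, and NDUFV1 (0.29), NDUFV3 (0.28) and NDUFA10 (0.20) in the long one. The part of length in the value of any gene was not tested.

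**Figure D5:**
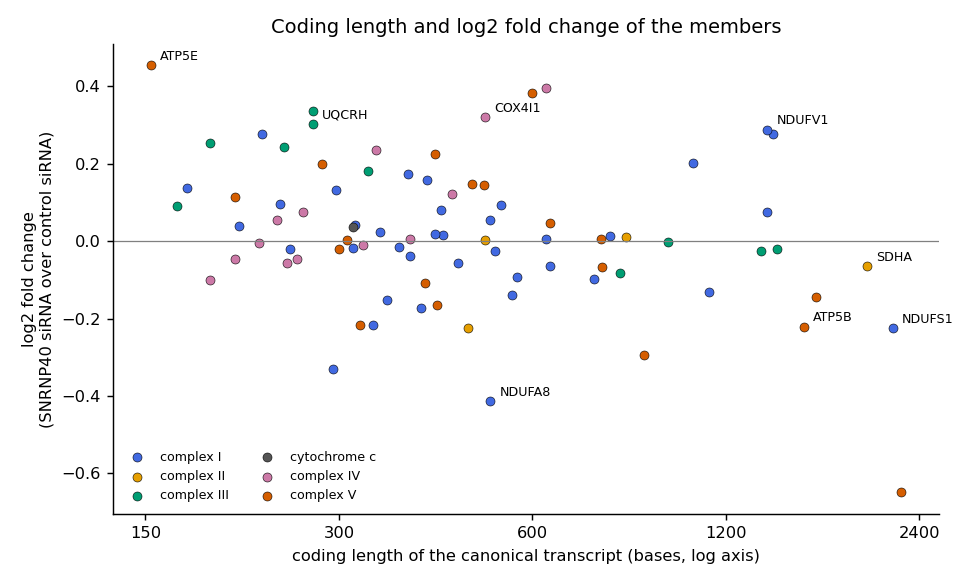
Log2 fold change (y axis, SNRNP40 siRNA over control siRNA) against coding length of the canonical transcript (x axis, bases, log axis) for 84 members, coloured by complex. The short end, with ATP5E at 153 bases and UQCRH at 273, has more points above 0 than the long end, with ATP5B at 1587 and NDUFS1 at 2181; NDUFV1, at 1392 bases, lies above 0 among the long genes.

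Respiratory genes are known targets of NRF1 and of the ETS factor GABP, whose DNA-binding subunit is encoded by GABPA. RefSeq promoters of GRCh38.p14, from 250 bases before to 50 bases after the gene start, were found for 67 of the 86 expressed members and searched on both strands for GCATGCGC, a core of the NRF1 motif, and for CCGGAAG, an ETS core. The NRF1 core was present in 15 member promoters (22.4%), against 6.80% of 9364 promoters of expressed genes and 3.68% of 27305 promoters in all. The ETS core was in 21 (31.3%), against 24.0% and 12.2%, and 6 promoters held both. The 15 members with the NRF1 core had a median log2 fold change of -0.010, ran from -0.41 (NDUFA8) to 0.23 (ATP5G2) and included 7 above 0. The members without it had a median of 0.0090. With and without the ETS core the medians were 0.013 and -0.017.

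Stretches of 6 of these promoters show the shared core in genes at different places of the fold change range, from ATP5C1 at -0.29 to ATP5G2 at 0.23. Each is given along the gene, with 30 bases on either side where these lie before the gene start, and capitals mark the NRF1 core on either strand. Where the core and its reverse complement overlap, the capitals run over 10 bases.
ATP5C1 (chr10:7788125-7788176, plus strand): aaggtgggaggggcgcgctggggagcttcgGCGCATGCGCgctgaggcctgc
NDUFB4 (chr3:120596147-120596216, plus strand): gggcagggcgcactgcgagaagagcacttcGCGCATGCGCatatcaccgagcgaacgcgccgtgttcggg
COX6A1 (chr12:120437865-120437976, plus strand): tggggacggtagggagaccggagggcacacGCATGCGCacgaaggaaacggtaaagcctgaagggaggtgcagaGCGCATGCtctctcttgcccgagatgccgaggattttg
SDHB (chr1:17054195-17054262, minus strand): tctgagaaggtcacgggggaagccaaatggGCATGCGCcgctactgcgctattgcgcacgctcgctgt
CYCS (chr7:25125392-25125459, minus strand): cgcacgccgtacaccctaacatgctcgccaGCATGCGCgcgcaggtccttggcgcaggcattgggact
ATP5G2 (chr12:53676351-53676418, minus strand): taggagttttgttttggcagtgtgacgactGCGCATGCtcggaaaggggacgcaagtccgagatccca
The same letters thus stood before genes that were lower, level and higher. NDUFB4 (-0.039), COX6A1 (-0.010), SDHB (0.011) and CYCS (0.035) were all within 0.04 of 0. ATP5C1 and NDUFB4 hold the overlapping form, and COX6A1 holds the core at 2 places.

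The regulators themselves were mixed in direction. Of 12 genes listed, 11 were expressed, with a median mean FPKM of 13.7, below the 63.8 of the subunits, and a median log2 fold change of 0.025. ESRRA, the oestrogen-related receptor alpha, had an FPKM of 11.9 and 15.5 (0.38), and PPRC1, a coactivator of the PGC1 family, had 5.01 and 6.58 (0.39). GABPA, given above, was the only 1 of the 11 below -0.3, whereas its partner GABPB1 had 19.1 and 19.5 (0.032). NRF1 had 3.56 and 4.18 (0.23), and TFAM, which packages mitochondrial DNA, had 68.7 and 65.0 (-0.080).

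Assembly factors, which insert cofactors and join subunits but are not part of the finished complexes, were spread a little more widely than the subunits. All 44 listed were expressed, with a median log2 fold change of 0.0070 and a median absolute value of 0.153. Above 0.3 were 4 (9.09%, against 13.3% of all genes) and below -0.3 was 1 (2.27%, against 12.7%). SCO2, a copper chaperone of complex IV, had 2.04 and 3.24 (0.67), and COX10, which makes the haem A precursor, had 3.71 and 5.90 (0.67). SDHAF2, which helps to attach flavin to SDHA, had 24.8 and 32.7 (0.40), and COA5, of complex IV assembly, had 9.60 and 7.60 (-0.34). Their median mean FPKM was 15.4, below the 63.8 of the subunits, and the spread of fold changes over all genes was also wider at lower levels.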

How the data were processed

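RNA of 4 libraries was measured. The authors' pipeline used cutadapt 1.2.1 for trimming, TopHat2 2.0.8 for mapping to build hg19, then Cufflinks, and Cuffdiff 2.0.2 for the comparison. Each deposited FPKM value is a Cuffdiff estimate for 1 transcript in 1 condition, pooled by the authors over both libraries, so depth and replicate error are unknown. Cuffdiff's fold changes, test statistics, p-values and significance calls are the authors' comparison and were not used.

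FPKM was summed per gene symbol, and log2 of siSNRNP40 over siControl was taken without a pseudocount at a mean FPKM of at least 1. The members, gene lists and limits were chosen with earlier results of these data known. The genes named are SNRNP40, core and catalytic subunits, the 5 highest and lowest fold changes in each complex with over 10 expressed members (otherwise the highest and lowest), the 5 highest levels, minor isoforms with their partners, transcripts past a log2 fold change of 1, and up to 4 of each other list (carriers, citric acid cycle, assembly factors, regulators, interferon-stimulated genes, line markers). Genes named beyond this were chosen after their values were seen, and values of 1 gene that the rule names are not reported here.

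Coordinates and lengths came from GRCh37 with GENCODE 44, which has the coordinates of hg19, and matched 85 of 86 expressed members. Promoter sequences came from RefSeq on GRCh38.p14. Python 3.11.15, pandas 2.3.3, numpy 2.4.6, scipy 1.17.1, biopython 1.88 and matplotlib 3.10.9 were used. Alternatives changed the filter, pseudocount, scaling, summing and composition of the members.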

Additional observations from a re-analysis of the deposited data

How the results depend on the processing

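No paired analysis was possible because the libraries of a condition are pooled and the columns carry no replicate numbers, and the planned fits without 1 replicate and with a replicate block were not run. The count of members past 1 in either direction, 0, was 3 without a filter and 1 with the most expressed transcript of each gene. The count below -0.3, 4, was 7 without a filter, 10 with the most expressed transcript, 2 with a minimum mean FPKM of 5, 2 for subunits alone and 2 with a minimum of 20. The share of all genes below -0.3 was 12.7% in the reported setting, 18.5% without a filter, 15.6% with the most expressed transcript, 10.9% with a minimum of 5 and 9.8% with a minimum of 20. The 13 transcripts past 1 became 7 with a pseudocount of 1 and 1 with a minimum mean FPKM of 5. The log2 ratio of summed FPKM of complex V, 0.28, was 0.010 without ATP5E. The limit of 20 and leaving out ATP5E were chosen after the data were seen. Where a filter or the make-up of the set was changed, different genes were counted; for the most expressed transcript the cause was not tested.

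The count above 0.3 lay between 4 and 9, the median of the members between 0.0017 and 0.036, and no median of a complex moved by 0.1. Of 344 values of single members under 4 alternatives, 332 moved by less than 0.1, 12 moved by more and 0 of those past 0.3 changed sign. Of the 12, 11 were with the most expressed transcript, which turned NDUFC1 to -0.66, ATP5G1 to 0.025 and ATP5SL to 0.23.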

Other observations

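The enzymes that feed the respiratory chain were level as well. Of 17 genes of the citric acid cycle and the pyruvate dehydrogenase complex, all expressed, 0 were above 0.3 or below -0.3. Among all 12334 genes, 13.3% were above and 12.7% below these limits. For the 4052 highly expressed genes the shares were 6.64% and 9.8%. Whether 0 of 17 departs from such shares was not tested. The median log2 fold change of the 17 genes was 0.016. The ends of the range were both parts of succinyl-CoA ligase: SUCLG1, the alpha subunit, had an FPKM of 41.7 in the controls and 48.7 after SNRNP40 siRNA (0.22), and SUCLG2, a beta subunit, had 57.2 and 47.0 (-0.28). SUCLA2, the other beta subunit, had 18.7 and 16.7 (-0.16). PDHA1 and PDHB, the subunits of pyruvate dehydrogenase itself, had 0.18 and 0.16.

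Among the carriers and porins that exchange nucleotides and phosphate with the cytosol, 5 of 7 genes were below 0 and 2 above, with a median of -0.14. Over all genes 6101 of 12334 were below 0, so a count this small sets no direction for the group. VDAC2, a porin of the outer membrane, had an FPKM of 123 and 97.6 (-0.33) and was the only 1 of the 7 below -0.3. VDAC1 had 222 and 203 (-0.13), VDAC3 had 69.5 and 60.6 (-0.20), and the phosphate carrier SLC25A3 had 234 and 212 (-0.14). The adenine nucleotide carriers stood on both sides, with SLC25A4 at -0.25, SLC25A5 at 0.074 and SLC25A6 at 0.15.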
